A study of Mus musculus with 6 samples.

Results

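The Id family was followed in mouse CD4 T cells that carried either an E47-ER or a control bHLH-ER retrovirus. It was taken as every array probe set whose annotated gene symbol is exactly Id1, Id2, Id3 or Id4, which gave 4 of 18193 named genes and 8 of the 45037 probe sets tested, 1 for Id1, 3 for Id2, 1 for Id3 and 3 for Id4. A probe set is a group of short probes on the array that together read 1 transcript, and probe sets of 1 gene are readings of the same RNA, not replicates. The cells were CD4+CD25- T cells from lymph nodes of C57BL/6 mice aged 7, 8 and 9 weeks in experiments 1, 2 and 3, with 3, 3 and 4 mice pooled per sample. They were stimulated on plates with anti-CD3 (2 µg/ml) and anti-CD28 (1 µg/ml), with TGF-β1 at 5 ng/ml and IL-2 at 200 U/ml, over 2 days, conditions that steer naive cells towards a regulatory T cell (Treg) fate. The retrovirus, pMIT-E47-ER in 3 samples and pMIT-bHLH-ER in 3 controls, was given on day 1, and carriers were sorted by CD4 and Thy1.1. All 6 samples then had IL-2, the same antibodies and 1 µM tamoxifen for 6 hours, so no sample was without tamoxifen and effects of the constructs before and during those hours cannot be told apart. Each experiment gave 1 control and 1 E47 sample. The model is forced expression from a virus in pooled, cultured cells, and the sources used here name the control construct bHLH-ER without describing it.

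Id proteins are helix-loop-helix proteins without the basic region that contacts DNA. They pair with E proteins such as E47 (a product of Tcf3), HEB (Tcf12) and E2-2 (Tcf4) and so keep these factors off the E-box sequences to which they bind as dimers. In T cells Id2 and Id3 are the members best known for setting the activity of E proteins, during thymocyte selection, effector differentiation and Treg maintenance, and E proteins are themselves known to raise the transcription of Id genes. The comparison of E47 with control asks how the RNA of these inhibitors differed when an E protein was supplied in excess.

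The start regions of the Id genes are shown because Id2 and Id3 differed between the groups and Id4 did not pass the test, while E47 binds the E-box CANNTG. Promoter sequences from RefSeq (build GRCm38.p6) matched 3 of the 4 members, Id2, Id3 and Id4. The 250 bases before the annotated start are given 5′ to 3′ on the strand of the gene, with every CANNTG in capitals. They lie at chr12:25096093-25096342 on the minus strand for Id2, at chr4:136143572-136143821 on the plus strand for Id3 and at chr13:48260866-48261115 on the plus strand for Id4.
Id2: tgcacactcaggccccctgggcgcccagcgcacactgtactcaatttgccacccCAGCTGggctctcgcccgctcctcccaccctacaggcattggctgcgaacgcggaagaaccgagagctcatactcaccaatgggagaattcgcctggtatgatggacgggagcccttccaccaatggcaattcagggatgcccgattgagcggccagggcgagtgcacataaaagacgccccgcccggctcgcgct
Id3: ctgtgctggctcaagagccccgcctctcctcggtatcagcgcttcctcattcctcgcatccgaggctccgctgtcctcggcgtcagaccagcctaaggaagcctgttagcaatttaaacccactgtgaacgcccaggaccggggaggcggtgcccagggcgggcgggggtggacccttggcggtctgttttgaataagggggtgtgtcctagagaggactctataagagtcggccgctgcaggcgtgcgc
Id4: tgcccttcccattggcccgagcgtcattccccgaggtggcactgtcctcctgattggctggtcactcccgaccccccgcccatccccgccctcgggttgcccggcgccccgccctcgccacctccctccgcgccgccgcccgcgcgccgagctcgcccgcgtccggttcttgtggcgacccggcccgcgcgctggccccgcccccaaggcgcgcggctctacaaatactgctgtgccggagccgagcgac

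The Id2 window held 1 E-box, CAGCTG, from 196 to 191 bases before the start, and the Id3 and Id4 windows held 0. Of 32851 promoters of the same length, 66.2% held at least 1 CANNTG, which reads the same on both strands, and 13% held CAGCTG, a form that E proteins bind well. CAGGTG, searched on both strands, was in none of the 3 windows and in 17.2% of all promoters, and CACGTG, the form that Myc and Max bind, was also in none of the 3 and in 6.02% of all. CCAAT, the site of the factor NF-Y, occurred 3 times in the Id2 window and 2 times in that of Id4, and in all promoters at least 2 times in 10.1% and at least 3 times in 2.79%. TATAA occurred once, in Id3, from 29 to 25 bases before the start, and in 22.8% of all promoters. GCGNGGGCG, a site of the Egr factors, occurred 2 times in Id4, both on the opposite strand. Over all promoters it occurred at least once in 4.7% and at least 2 times in 0.648%. These matches describe letters in 1 short window each and say nothing of sites elsewhere in the loci.

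The arrays were alike in level, with median intensities between 34.3 and 35.4, and correlated with each other at 0.987 to 0.996 over all probe sets. Experiment 2 stood apart: its 2 arrays deviated together from their group means (r = 0.52 across probe sets). Either of them against an array of another experiment and group gave r between -0.43 and -0.14. Deviations from a group mean cancel out within the group, so these negative values follow in part from the positive one. Tcf3 itself had differences of -0.01, 0.28 and 0.02 on the log2 scale (E47 minus control) in its 3 probe sets, and none passed. Where those probe sets lie relative to the cloned E47 was not analysed here, so they do not check the labels. CD4 T cell and Treg markers were present, 6 of 6 and 8 of 8 measured above the median probe set in control samples. Both CD8 T cell markers, 2 of 2, were above it too, so this yardstick alone does not settle cell identity. Cd8b1 ran from 6.40 to 6.73 across control arrays and from 6.88 to 7.51 across E47 arrays (limma adjusted p = 0.804, and 0.365 with the block). Cd8a ranged over 5.79 to 6.68 and 6.02 to 7.17, so its groups overlapped. The part of CD8 T cells in the Id results was not tested. Thy1, whose Thy1.1 form marked carriers of the virus, had log2 levels of 12.05, 12.19 and 11.59 in control and 12.73, 13.03 and 12.54 in E47 samples (adjusted p = 0.428, and 0.0498 with the experiment as a block); its part in the Id results was not tested. Foxp3, the factor that defines Tregs, was higher in experiment 2 than in the others: control arrays 1 to 3 had 6.42, 8.16 and 6.29, and E47 arrays 6.36, 7.83 and 6.07.

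Id2 rose 6.24-fold to 7.14-fold and Id3 3.10-fold with E47, while Id1 was higher in every E47 array without passing the test and Id4 stayed at the dim end of the array. Of the 8 Id probe sets, 4 passed limma's test over all probe sets at an adjusted p of 0.05, against 0.115% of all 45037 that passed upwards. They were the 3 of Id2, which read the same RNA, and the 1 of Id3. With the experiment as a block the same 4 passed, against 0.238% of all. Each of them was also at least 2-fold higher, which together with passing held for 0.109% of all probe sets without the block and 0.206% with it. In 5 of the 8 Id probe sets, those of Id1, Id2 and Id3, all E47 arrays lay above all control arrays, which 4.57% of all probe sets did. In bulk RNA, a change in the share of cells that express a gene and a change in RNA per cell cannot be told apart.

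**Figure D1:**
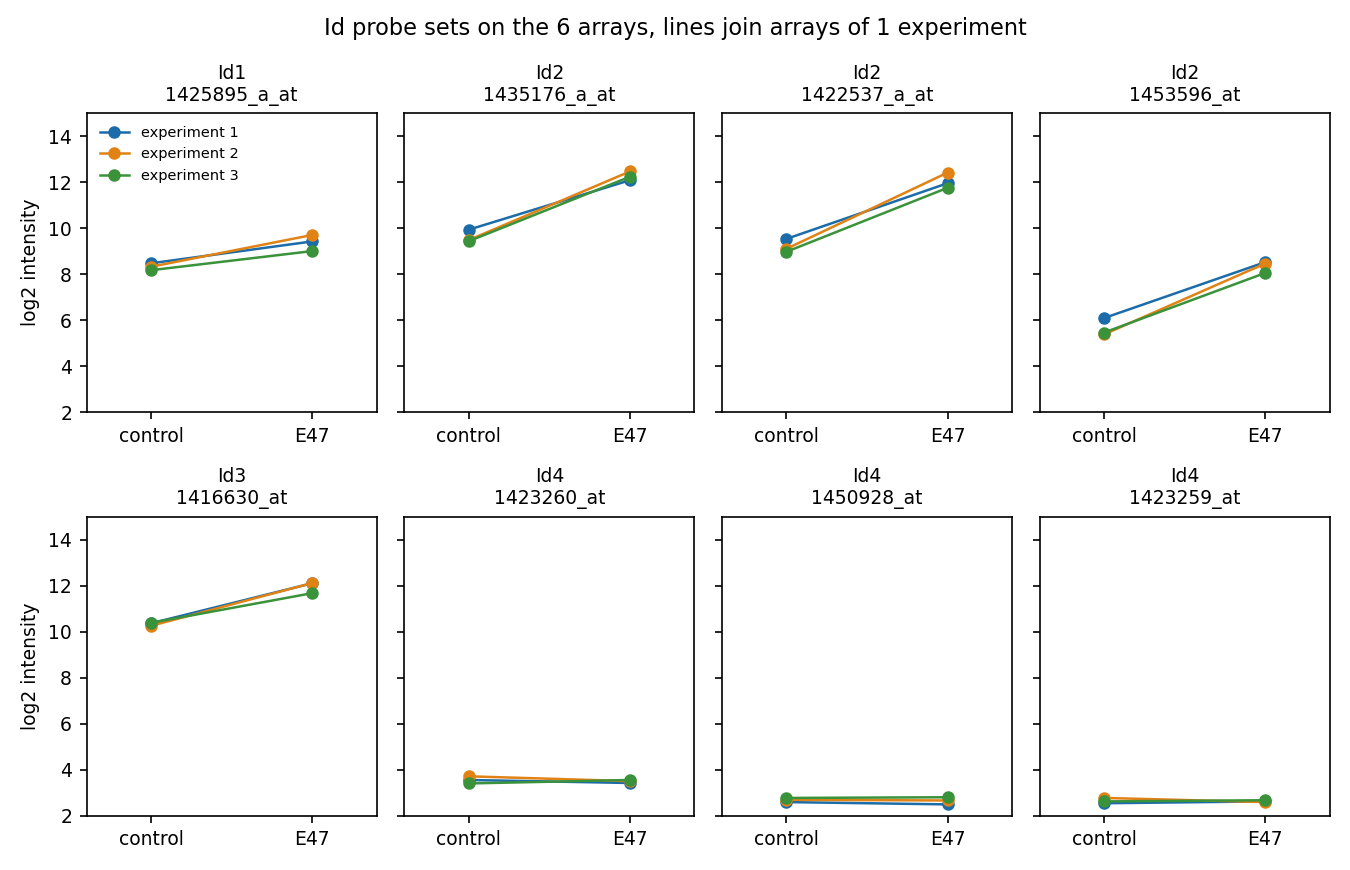
Log2 intensity of each Id probe set (1 panel each) on the control and E47 arrays, with a line for each of the 3 experiments. The Id2 panels climb from 5.38 to 9.93 in control to 8.05 to 12.46 in E47 arrays, Id3 climbs from about 10.33 to 11.96, and the Id4 panels stay at or below 3.71 in both groups.

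Id2, the member tied to innate lymphoid cells and effector T cells, was read by 3 probe sets. On the brightest, 1435176_a_at, control replicates 1 to 3 had log2 levels of 9.93, 9.48 and 9.43 and E47 replicates 1 to 3 had 12.08, 12.46 and 12.23. The lowest E47 array was thus far above the highest control array, which was that of experiment 1. As intensities these were 691 to 978 in control and 4330 to 5640 in E47 samples. The means were 9.61 ± 0.28 and 12.26 ± 0.19 (SD, n = 3), a rise of 2.64 on the log2 scale (SE 0.16) or 6.24-fold, with a 95% confidence interval of 4.81 to 8.11 (limma adjusted p = 0.00328, and 0.00673 with the block).

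The second Id2 probe set, 1422537_a_at, had 9.53, 9.10 and 8.97 in control and 11.95, 12.41 and 11.75 in E47 samples. Its rise was 7.14-fold (interval 5.15 to 9.90, limma adjusted p = 0.00727). The dimmest, 1453596_at, had 6.09, 5.38 and 5.46 in control and 8.52, 8.46 and 8.05 in E47 samples and rose 6.49-fold (interval 4.63 to 9.11, limma adjusted p = 0.00926). The 3 intervals overlap, and each holds the fold of the other two. Over the 6 arrays the 3 profiles correlated at 0.99 to 1.00 with each other, as readings of the same RNA from the same libraries. Among all probe sets they ranked 15, 11 and 14 by size of rise.

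Id3, known as an early target of antigen receptor signals through Egr factors, was the member with the tightest control levels. Its 1 probe set, 1416630_at, had 10.36, 10.25 and 10.38 in control and 12.10, 12.11 and 11.67 in E47 samples. The 3 controls lay within 0.13 of each other, and among E47 arrays that of experiment 3 was the lowest. In intensity these were 1220 to 1330 in control and 3250 to 4430 in E47 samples. The rise was 1.63 on the log2 scale (SE 0.14) or 3.10-fold, with an interval of 2.49 to 3.85 (limma adjusted p = 0.00999, and 0.0161 with the block). It ranked 55 of 45037 by size of rise.

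Id1, best known as a BMP target of endothelial and progenitor cells, was read by 1 probe set, 1425895_a_at, which had 8.47, 8.32 and 8.17 in control and 9.42, 9.70 and 9.00 in E47 samples. The groups did not overlap and the E47 arrays spread more, 0.35 against 0.15 (SD, n = 3). The difference was 1.06 (SE 0.18) or 2.08-fold, with an interval of 1.56 to 2.77, and it did not pass without the block (limma adjusted p = 0.169) or with it (0.0592). Counting 1 probe set per gene, which adjusts over fewer tests, it passed with the block (limma adjusted p = 0.0170) and not without it (0.118).

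Id4, a member of neural and epithelial progenitors, was read by 3 probe sets at the floor of the array. In control samples 1423260_at had 3.55, 3.71 and 3.40, above 20.3% of all probe sets, while 1450928_at and 1423259_at stood above 2.68% and 2.13%. In E47 samples 1423260_at had 3.42, 3.50 and 3.55, and the groups overlapped on all 3 probe sets. The differences were -0.06, -0.04 and -0.02, with intervals of -0.31 to 0.18, -0.29 to 0.22 and -0.24 to 0.20, and 0 of 3 passed limma's test with or without the block, nor at an unadjusted p under 0.05. At such levels the intervals bound the signal of the probe sets and not the RNA, since detection above background was not tested.

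**Figure D2:**
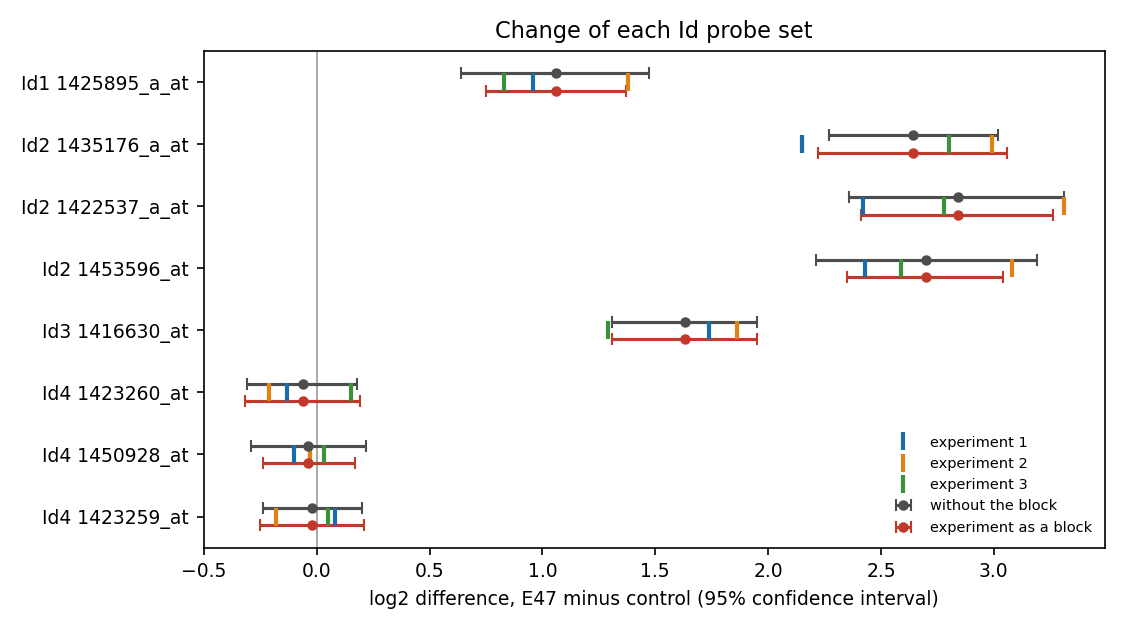
Log2 difference between E47 and control for each Id probe set, with 95% confidence intervals from the fits without and with the experiment as a block; ticks mark the 3 experiments. The Id2 probe sets centre on 2.64, 2.84 and 2.70, Id3 on 1.63 and Id1 on 1.06, and the Id4 intervals include 0.

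Taken by experiment, the rise was present in all 3 and largest in experiment 2 for each probe set of Id1, Id2 and Id3. On the brightest Id2 probe set, E47 was 4.43-fold, 7.92-fold and 6.94-fold above the control of experiments 1, 2 and 3. Id3 was 3.34-fold, 3.64-fold and 2.44-fold above, and Id1 1.94-fold, 2.60-fold and 1.78-fold. With 1 pair per experiment, differences between experiments could not be tested. Higher levels in all 3 E47 samples than in their own controls were seen in 13.5% of all probe sets.

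The sizes of the 3 changes were set against each other within arrays. The change of Id2 exceeded that of Id3 by 0.40, 1.12 and 1.51 on the log2 scale in experiments 1 to 3, on average 1.01 ± 0.56 (SD, n = 3). It exceeded that of Id1 by 1.59 ± 0.39, and Id3 exceeded Id1 by 0.57 ± 0.18. With arrays permuted regardless of experiment, each had a two-sided exact permutation p of 0.1, the smallest that 3 arrays against 3 allow, and 0.1 after adjustment over the 3 comparisons. With signs turned within experiments the exact p was 0.25, the smallest that 3 pairs allow, so neither test could pass 0.05. Changes read by different probes can also differ because probes respond differently to the same RNA.

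The calls of Id2 and Id3 depended on which arrays were kept, while their sizes moved little. Without the block, the brightest Id2 probe set passed whichever single array was left out (limma adjusted p up to 0.0397), and its dimmest did not without control replicate 3 (0.0541). Id3 did not pass without control replicate 1, 2 or 3 (0.0661, 0.0545 and 0.0541). With both arrays of experiment 3 left out, no Id2 or Id3 probe set passed (0.115 to 0.277 without the block and 0.0844 to 0.171 with it), and then only 1 probe set of the whole array passed without the block and 4 with it. Without experiment 2, Id3 did not pass (0.0675, and 0.122 with the block), nor did 1453596_at without the block (0.0503) or 1435176_a_at with it (0.05003). Without experiment 1 and without the block, Id3 (0.221) and 1422537_a_at (0.0713) did not pass, while with the block all 4 passed (0.000307 to 0.00938). The rises themselves stayed between 2.47 and 3.04 for Id2 and between 1.51 and 1.80 for Id3 in these fits.

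**Figure D3:**
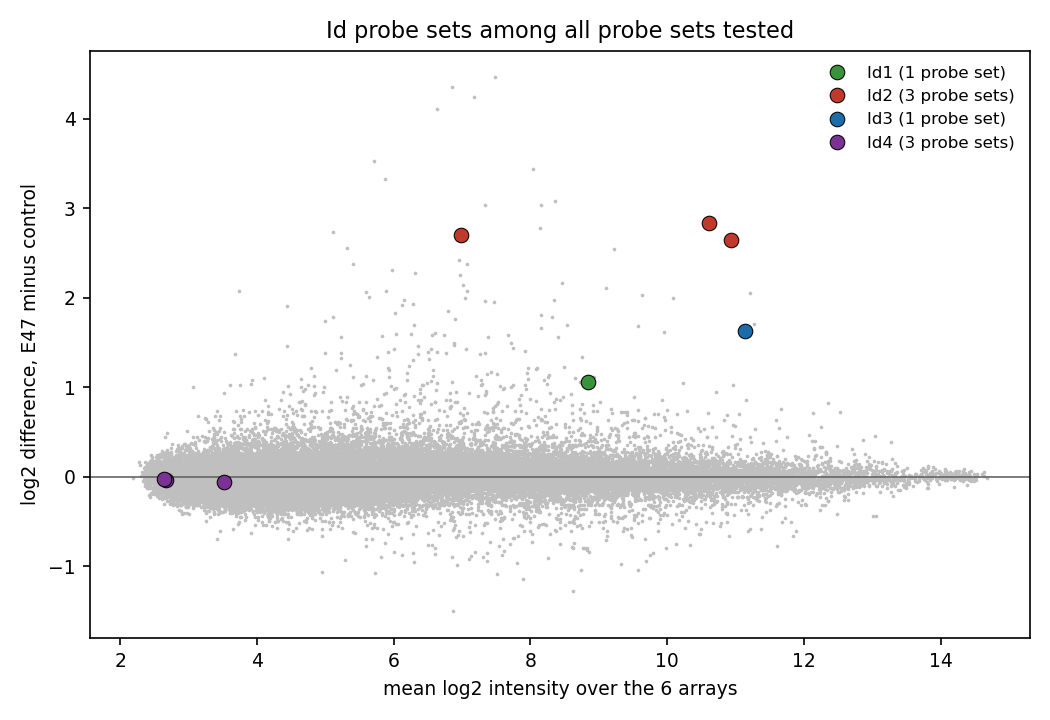
Every tested probe set (grey) by its mean log2 intensity over the 6 arrays and its log2 difference between E47 and control, with the 8 Id probe sets in colour. The 2 brighter Id2 probe sets and Id3 combine a large rise with a high level, while the Id4 probe sets sit at the dim edge; 90% of all differences lie between -0.25 and 0.27.

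Cells other than T cells, among them types that express Id2 strongly, were looked for through their markers. Of 8 measured markers of NK cells and innate lymphoid cells 0 passed limma's test with or without the block, and their summed intensity was 341 to 759 in control and 397 to 695 in E47 samples. Ncr1, which defines NK cells, had a mean log2 level of 3.85 in control and 3.73 in E47 samples, against a median of 5.13 over all probe sets. The other 7 went both ways, and 3 of the 8 were above that median in control samples. Klrd1, the brightest of them by group mean, had 7.13, 8.79 and 6.68 in control and 7.21, 8.35 and 6.92 in E47 samples. Eomes, a factor of NK cells and of some T cells, had 6.21, 7.21 and 6.57 in control and 6.70, 7.69 and 7.39 in E47 samples, higher in each experiment with overlapping groups (limma adjusted p = 0.854, and 0.153 with the block). Its part in the Id results was not tested. Dendritic cell markers (6 measured, 0 passed) summed to 177 to 213 in control and 166 to 175 in E47 samples. Of these, 3 were above the median of 5.13 in control samples. Their means ran from Xcr1 at 3.37 and 3.20 to Zbtb46 at 5.98 and 5.78. Macrophage markers (6 measured, 0 passed, 1 above the median in control samples) summed to 206 to 218 and 185 to 206. Lyz2 stood at 4.12 and 3.92, and Csf1r, the brightest, at 6.71 and 6.55. B cell markers (7 measured, 0 passed, 3 above the median in control samples) summed to 208 to 249 and 199 to 228. Cd79a stood at 4.60 and 4.40, and Cd22, the brightest, at 5.47 and 5.39. The Treg marker sum was lower in E47 samples, 12700 to 13800 against 14700 to 15600, with 0 of 8 markers past the test, and its part in the Id results was not tested.

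Few genes of E proteins, or of bHLH factors that pair with E proteins, passed limma's test. Of 17 such genes, 0 passed limma's test without the block (0 higher and 2 lower at an unadjusted p under 0.05). With the block 1 fell, against 0.0333% of all probe sets that fell. At an unadjusted p under 0.05 with the block, 0 were higher and 4 lower. Over all probe sets, 2.62% were higher and 3.32% lower at an unadjusted p under 0.05 without the block (5.94% together), and 4.33% and 4.74% with it (9.06% together). The list's median difference was -0.03, beside -0.02 over all probe sets. Tcf12, which encodes HEB, had 10.70, 10.84 and 10.68 in control and 10.79, 10.90 and 10.85 in E47 samples, a difference of 0.10 (SE 0.09). Tcf4, which encodes E2-2, had a difference of -0.34 (SE 0.17, adjusted p = 0.854) from control levels of 6.35, 5.66 and 5.98. The gene that fell with the block was Tal2, a bHLH factor known from T cell leukaemia. Its control arrays had 7.95, 6.61 and 8.16 and its E47 arrays 7.18, 5.62 and 7.16 (difference -0.92, limma adjusted p = 0.0306 with the block and 0.858 without). Its control levels differed by more between experiments than the groups did, its other probe set had -0.19, and it did not pass without experiment 2 (0.271) or 3 (0.365). Nhlh1 (-0.42) and Tcf15 (-0.23) were next by p and did not pass. Most genes of this list, Nhlh1 (control mean 3.91) among them, were below the median probe set, 5.13, in control samples. The list's median difference therefore describes mainly dim probe sets.

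A list of 19 other repressors, helix-loop-helix genes such as those of the Hes, Hey and Mxd families and the homeobox gene Hhex, gave 0 past the test without the block (2 higher and 0 lower at an unadjusted p under 0.05, beside 2.62% and 3.32% of all probe sets). With the block 2 were higher and 0 lower at an unadjusted p under 0.05 (beside 4.33% and 4.74%). Past the test with the block 1 rose, against 0.238% of all probe sets. It was Mxd1, a partner of Max that opposes Myc. It had 7.13, 7.94 and 6.99 in control and 8.15, 9.14 and 8.43 in E47 samples (difference 1.22, limma adjusted p = 0.0213 with the block and 0.583 without). Another Mxd1 probe set had 1.41 (limma adjusted p = 0.0119 with the block) and the remaining one 0.19 (0.617), and the call was lost without experiment 2 (0.176) or 3 (0.233). Hes1, a Notch target and repressor, had 0.42 and Mxd3 0.30, and neither passed. The median of this list was -0.03.

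Genes of the BMP and TGF-β pathways, whose Smad proteins are known regulators of Id genes, had a median difference of -0.09. Of 30 measured, 0 passed without the block (3 higher and 1 lower at an unadjusted p under 0.05, beside 2.62% and 3.32% of all probe sets) and 1 rose with it, against 0.238% of all. At an unadjusted p under 0.05 with the block, 4 were higher and 3 lower (beside 4.33% and 4.74%). The gene that passed with the block was Smad3, a receptor-activated Smad of the TGF-β arm. Its control arrays had 7.55, 8.01 and 7.48 and its E47 arrays 8.94, 10.10 and 9.07. The groups did not overlap, and the difference of 1.69 had a limma adjusted p of 0.0206 with the block and 0.210 without. Its other 2 probe sets were dimmer, at 0.35 and -0.05, and the call was lost without experiment 2 (0.0656) or 3 (0.282). The receptor gene Bmpr1a had 0.64 (limma adjusted p = 0.115 with the block), with 0.63 to 0.79 in 3 further probe sets and 0.10 and -0.20 in the remaining 2. Tgfb1 had -0.48 (0.155), with -0.04 in its other probe set.

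Signals from the antigen receptor to Id3, and from cytokines to Id2, gave no member past the test in either fit. Of 12 measured genes of the Egr and NFAT list, 2 had an unadjusted limma p under 0.05 without the block and 1 had with it, all lower in E47 (beside 3.32% and 4.74% of all probe sets), and the median was -0.09. Egr2, which encodes a factor known to drive Id3, had 10.31, 9.89 and 9.84 in control and 9.55, 9.24 and 9.17 in E47 samples. Each E47 array was thus below each control array, as in 6.65% of all probe sets. The difference was -0.69 (limma adjusted p = 0.431, and 0.0582 with the block). The other Egr2 probe set had -0.60. Egr1 had 0.25, with -0.04, 0.41 and 0.37 in experiments 1 to 3. Egr3 had -0.16, with -0.39, -0.51 and 0.42, while Egr4 had -0.12 and Nfatc2 -0.27. The part of these genes in the Id3 result was not tested. Of 17 measured genes of the cytokine and Stat list, 3 were higher and 1 lower at an unadjusted p under 0.05 without the block (beside 2.62% and 3.32% of all probe sets) and 4 and 5 with it (beside 4.33% and 4.74%), and the median was -0.11. Il12rb1, a receptor chain for IL-12, had -0.69 (limma adjusted p = 0.067 with the block) and Tbx21, the Th1 factor T-bet, -0.55 (0.191).

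Of 9 genes that act on the stability of Id proteins, such as the deubiquitinase Usp1, 0 passed limma's test, and 0 did so at an unadjusted p under 0.05 in either fit. Their differences lay between -0.08 and 0.23, with a median of 0.00. Usp33 had 0.23 and Fzr1, an activator of the anaphase-promoting complex, 0.12. Protein levels were not measured.

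Lymphocyte genes known to answer to E proteins or Id proteins held the most calls of these lists. Without the block 3 of 38 measured rose, against 0.115% of all probe sets, and with the block 6 rose, against 0.238%, and the median was 0.05. At an unadjusted limma p under 0.05 without the block, 10 were higher and 3 lower (beside 2.62% and 3.32% of all probe sets). With the block 12 were higher and 6 lower (beside 4.33% and 4.74%). Upward calls also prevailed over the whole array, 52 of 52 without the block and 107 of 122 with it. The list was drawn up with earlier results of these data known, so its counts are no independent evidence. Cxcr5, the follicle-homing receptor that Id2 and Id3 are known to restrain through E proteins, had 4.59, 4.52 and 4.59 in control and 8.61, 8.76 and 8.69 in E47 samples. It rose by 4.11 (limma adjusted p = 4.85e-06) and passed whichever array or experiment was left out. Cxcr4, the receptor for CXCL12, rose by 2.08 (0.00926, and 0.00708 with the block). Without the block it did not pass without control replicate 1 (0.0624), control replicate 3 (0.0541), E47 replicate 3 (0.0745) or experiment 3 (0.465), and with the block it did not without experiment 2 (0.0588) or 3 (0.176).

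Spib, an Ets family member known from the B cell and plasmacytoid dendritic lineages, rose by 2.42 without the block (limma adjusted p = 0.0277) and did not pass with it (0.0592). Without the block it was lost when control replicate 2 or 3 or E47 replicate 2 or 3 was left out (0.0691 to 0.177) and without experiment 2 (0.161) or 3 (0.759). With the block Il10, an anti-inflammatory cytokine, rose by 2.38 (0.00249), Bcl2l11, which encodes the death-promoting Bim, by 2.11 (0.00526; a dimmer probe set also passed without the block, at 0.0223), Gfi1, a repressor of lymphoid cells, by 1.47 (0.0234) and Ikzf3, the Ikaros family factor Aiolos, by 1.09 (0.0227), all by limma. Each was lost without experiment 3 (0.0606, 0.145, 0.220 and 0.246), and Gfi1 and Ikzf3 also without experiment 2 (0.188 and 0.147). The other Ikzf3 probe sets, both dimmer, had 0.35 and 0.04 (limma adjusted p = 0.482 and 0.913 with the block). Socs3, a brake on cytokine signalling, had 1.06 (0.067 with the block) and Foxo1, a factor of naive T cells, 0.63 (0.196). Further probe sets had 0.58 and 0.98 for Socs3 and 0.50, 0.71 and -0.10 for Foxo1.

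**Figure D4:**
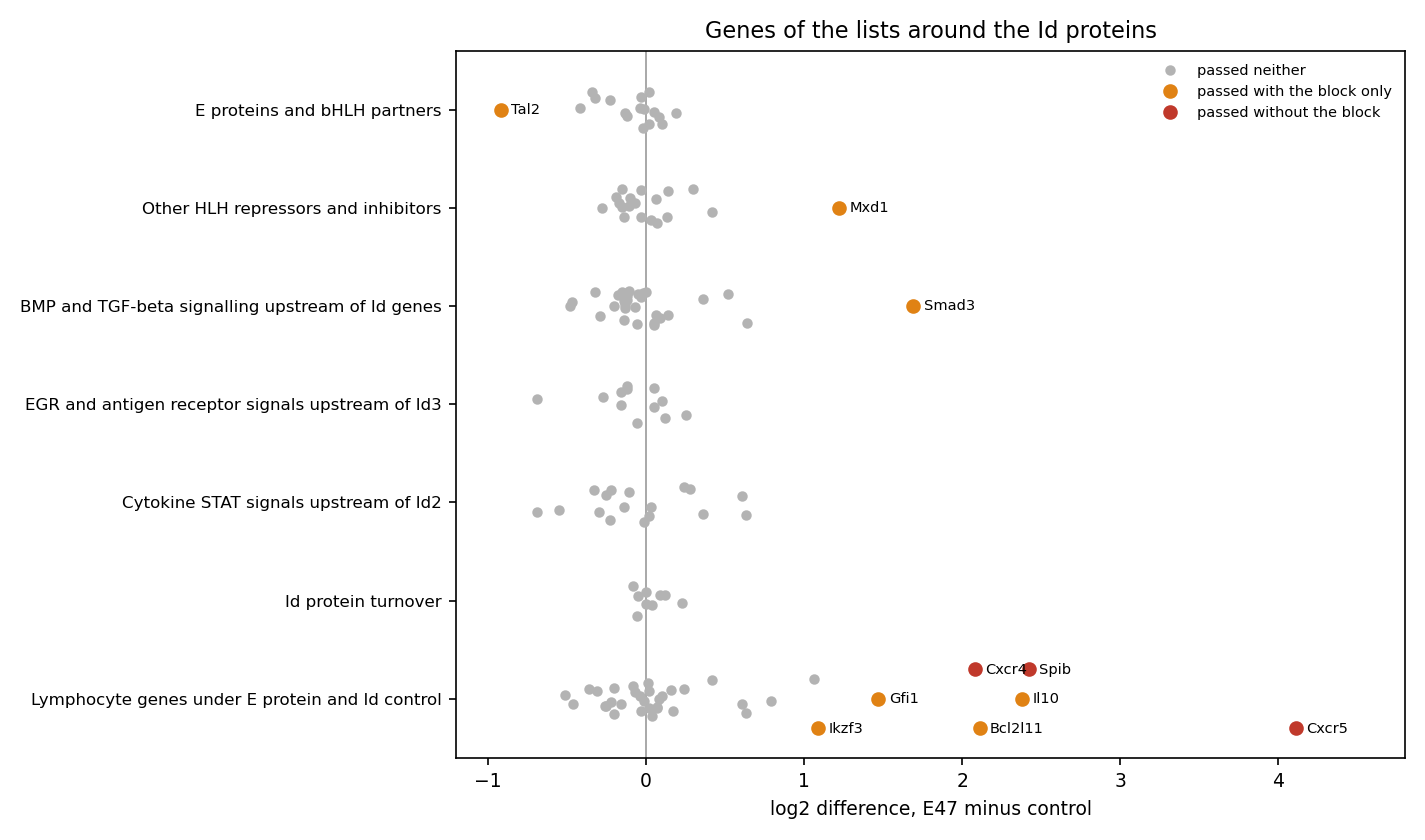
Log2 difference between E47 and control for the measured genes of 7 lists around the Id proteins, each gene as its probe set with the highest mean (1 point each, vertical spread for legibility). Red points passed limma's test without the block and orange points with the block only; outside the last list only Tal2, Mxd1 and Smad3 passed, each with the block only.

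The genes around the Id loci were examined to see whether they differed along with the members. The 3 nearest named protein-coding genes on each side gave 24 neighbours, 23 of them measured. Each stands as its probe set with the highest mean unless stated. None passed limma's test without the block (3 did at an unadjusted p under 0.05, beside 5.94% of all probe sets) and 1 did with it, against 0.271% of all. Over all 57 probe sets of the neighbours, differences ran from -0.29 to 1.11. Of these, 0 passed without the block and 2 with it, both of E2f2, described below. Around Id2 the 6 neighbours had differences between -0.12 and 0.07: Rrm2, Mboat2, Kidins220, Rnf144a, Rsad2 and Cmpk2. Their other probe sets reached -0.22 (Kidins220) and 0.14 (Rsad2). Rsad2, an interferon-induced gene 2 places away, had 0.00. Around Id1, Cox4i2 had -0.26 and H13, Mcts2, Bcl2l1 and Tpx2 between -0.09 and 0.12.

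Next to Id3 lies E2f2, a transcription factor of the cell cycle, and it was the neighbour that rose with the block. It had 8.38, 8.84 and 7.91 in control and 9.29, 10.21 and 8.96 in E47 samples (difference 1.11, limma adjusted p = 0.0345 with the block and 0.759 without). The groups did not overlap, and its other probe set had 1.10 (0.0479 with the block). The call was lost without experiment 2 (0.188) or 3 (0.381). Of the other genes around Id3, Rpl11 on the opposite side had 0.02, and Pithd1, Eloa, Asap3 and Tcea3 lay between -0.04 and 0.07. Around Id4, Kdm1b, a histone demethylase gene 3 places away, had 0.76 (limma adjusted p = 0.694, and 0.398 with the block), and Dek, Rnf144b, Zfp169, Ptpdc1 and Barx1 lay between -0.13 and 0.04.

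**Figure D5:**
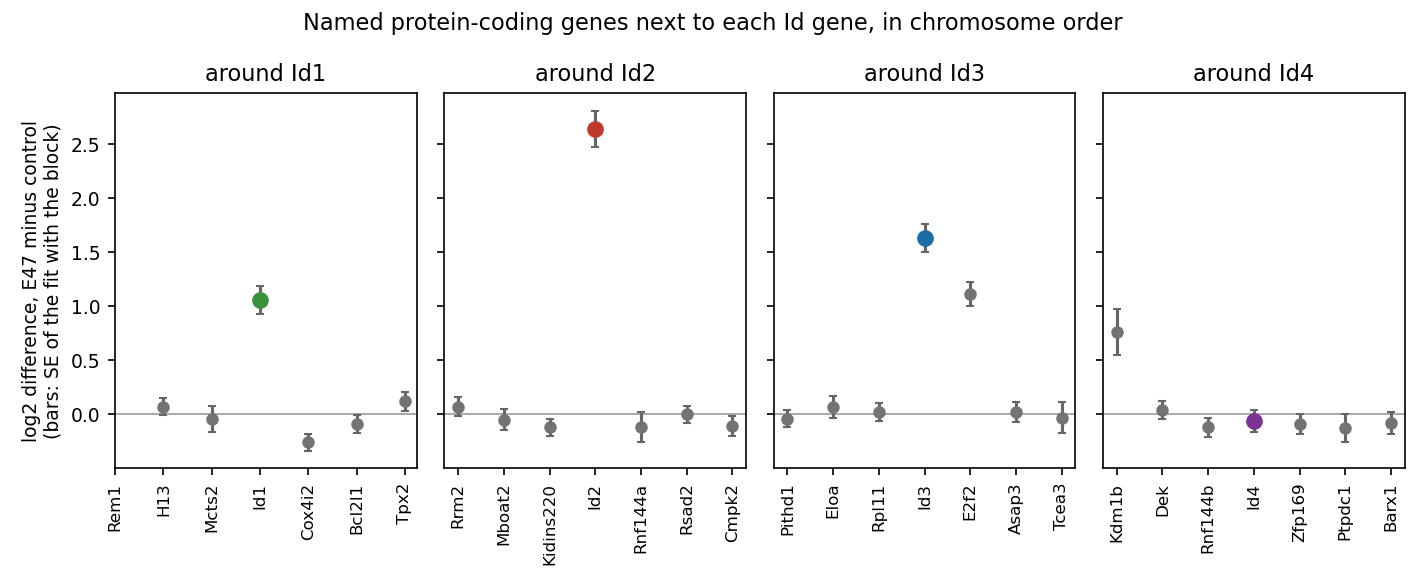
Log2 difference between E47 and control for each Id gene (coloured) and its 3 named neighbours on each side in chromosome order. Each gene is shown as its probe set with the highest mean, with the SE of the fit with the block. Rem1 has no point. E2f2 beside Id3 stands at 1.11 and Kdm1b near Id4 at 0.76, and the other neighbours lie between -0.26 and 0.12.

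The genes whose profile over the 6 arrays was most like that of each member were found by Pearson correlation among 1742 probe sets with a log2 range of at least 1. These correlations are descriptive: the arrays fall into 2 groups, so a gene that differs between them correlates highly by that alone, and all share the same libraries. Most like Id2 were Grn, the progranulin gene (0.997), Pstpip2 (0.995), the long noncoding RNA Morrbid (0.992), Cdyl2 (0.992) and Cxcr5 (0.991). Grn had 7.37, 7.30 and 7.10 in control and 8.93, 9.22 and 9.04 in E47 samples, a difference of 1.81. Pstpip2, which encodes a membrane-bending protein, differed by 2.73.

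Most like Id3 were Avpr1a, a vasopressin receptor gene (0.995), Morrbid (0.994), Syde2 (0.992), Ighm, the µ heavy chain gene (0.991), and Cdyl2 (0.989). Morrbid and Cdyl2 were thus among the 5 nearest of both Id2 and Id3, with differences of 1.19 and 1.15. Most like Id1 were Sit1, an adaptor that dampens T cell receptor signals (0.992), Cbfa2t3 (0.986), Bcl2l11 (0.982), another probe set of Avpr1a (0.978) and Tdrd7 (0.974). Sit1 had 8.29, 8.18 and 7.77 in control and 9.39, 9.78 and 9.08 in E47 samples. For Id4, whose brightest probe set ranged over 0.30 in all, the highest correlation was 0.909 (Cybrd1, followed by Cpe, Prkar2b, Gbp2 and Denn2b), over levels too close together to order.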

How the data were processed

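RNA from 6 samples, 3 control and 3 E47, was measured on Affymetrix mouse expression arrays. The authors deposited 1 linear intensity per probe set and array, made with RMA (background correction, quantile normalization and probe summary; no version given), per the submitters' processing notes. Log2 was taken first. After removal of 64 Affymetrix controls, 45037 probe sets were tested without a filter on dim signal; 34945 have 1 symbol in the platform annotation, 932 several, and 9160 are unnamed here.

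E47 was compared with control in limma 3.58.1 (R 4.3.3; lmFit, eBayes, two-sided, Benjamini-Hochberg over all probe sets, threshold 0.05), with the group as the only term. An alternative had the experiment as a block; each fold and difference is the same in both. The pairing comes from the design text (independent experiments, 1 set each); same-numbered arrays also share mouse age and pool size. Their deviations from the group means correlated at 0.09, 0.52 and 0.31. Separate cultures are stated. P-values without the block set the difference against the spread among the arrays of a group. With the block they set it against the spread of the paired differences between experiments. In both, limma draws the spread of each probe set towards that of all probe sets.

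The Id members and 7 related lists (146 genes, 139 measured) were chosen with earlier results of these data known. List genes stand as their brightest probe set. Named were every Id probe set and list members past the threshold in either fit (up to 6, by lowest p with the block). Up to 2 others per list, all neighbours, and the 5 most alike genes per member were named too. Tcf4, Tcf12, Spib, Egr1, Egr3 and Egr4 were added after their values were seen. The fits were tested on simulated data. Precision is limited by having 3 arrays per group. Other scalings, a pseudocount, a dim filter, gene summaries, another spread model and left-out arrays were tried.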

Additional observations from a re-analysis of the deposited data

How the results depend on the processing

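No alternative tried here turned the direction of Id1, Id2 or Id3. The Id2 and Id3 probe sets passed in every fit that kept all 6 arrays, whether blocked, rescaled, filtered, summarised per gene or with a pseudocount, as far as each holds them. With arrays or experiments left out, the differences ranged from 2.47 to 2.89 (1435176_a_at), 2.60 to 3.04 (1422537_a_at) and 2.51 to 2.92 (1453596_at) for Id2, from 1.51 to 1.80 for Id3 and from 0.89 to 1.24 for Id1. Without experiment 3 and with the block, no Id2 probe set passed, at 2.57, 2.86 and 2.75. For Id4 they ranged from -0.17 to 0.01 (1423260_at), -0.11 to 0.04 (1450928_at) and -0.07 to 0.06 (1423259_at), so the sign of Id4 is not settled: it was above 0 at 0.01 and 0.04 without control replicate 2, at 0.01 without control replicate 3, at 0.04 without E47 replicate 1, and at 0.01 and 0.06 without experiment 2.

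The count of probe sets past the threshold was 52, all upwards, 122 with the replicate block (107 up, 15 down), 95 with a random replicate block and 20 with 16 added before the log, and ranged from 1 to 50 without the block when arrays or experiments were left out; with the block it was 551, 34 and 4 without experiments 1, 2 and 3. Further fits with the replicate block, chosen after seeing the data, gave 208 (1 probe set per gene), 178 (above the median level), 123 (median centring), 116 (cyclic loess) and 574 (trend and robust). Over all probe sets and all 6 arrays, adding the block to the main fit changed no Id call. Id1, at 1.06, passed only with the block and fewer tests or another spread model, at adjusted p = 0.0170 (per gene), 0.0475 (above the median) and 0.00173 (trend and robust), and at 0.0268 without experiment 1, where it was 1.11. Why these counts differ was not tested. Signal over background was not available, which limits Id4 most.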
